A study of Mus musculus with 2 samples.

Results

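The regions described here are stretches of open chromatin inside introns of protein-coding genes, found by DNase-seq in the newborn mouse bladder. DNase-seq sequences the ends of DNA fragments that the enzyme DNase I cuts loose from nuclei, so that accessible DNA appears as peaks. Nuclei came from the urinary bladders of female B6CASTF1/J mice, a hybrid of a laboratory and a wild-derived strain, at 4 days of age. There was 1 group of 2 biological replicates and no treatment, mutation or contrast. Each replicate was a female with its own number, both carried 1 donor identifier, and the spread between them may be partly technical. The peaks of each replicate, called by the authors in that replicate alone, were taken from the looser of the deposited lists, and overlapping peaks were merged. Merged regions with a peak of both replicates are called shared regions. A shared region was a member if its midpoint lay inside a protein-coding gene body of the GENCODE M21 annotation, in no annotated exon, and over 1 kb from any transcription start site (TSS). This held for 11254 of 53490 shared regions (21.04%). Of the other shared regions, 16942 were other distal regions, which lay over 1 kb from any TSS, in no exon and in no protein-coding gene body, 2500 were in exons and 22794 were proximal, within 1 kb of a TSS.

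Introns hold many of the enhancers of mammalian genomes, short stretches of DNA that bind transcription factors and act on promoters at a distance. An enhancer can act on the gene that hosts it or on a neighbour, so an intronic position does not say which gene is regulated. Introns also hold binding sites of CTCF, a zinc finger protein that anchors chromatin loops, and alternative promoters. Where a protein covers its site, DNase I cuts less, which leaves a footprint inside the open region.

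Sequences of 11 members are shown because they hold the motifs on which the results below turn. Each is the central 150 bp of the member in mm10 (GRCm38), printed on the strand on which the motif reads as its consensus, with the match in capitals. Heights are the deposited peak signal, in replicates 1 and 2. Matches to the CTCF consensus were shown for the tallest member with one, in intron 10 of Tmprss6, a membrane protease gene (chr15:78447766-78447915, plus strand, heights 5.90 and 4.39), for the next tallest, in intron 9 of Camta1 (chr4:151141666-151141815, minus strand, 5.41 and 3.56), and for one inside both Fgfr2 and Lhpp (chr7:132656716-132656865, plus strand, 3.15 and 3.22). A deposited footprint covered the match in both replicates in all 3.
Tmprss6: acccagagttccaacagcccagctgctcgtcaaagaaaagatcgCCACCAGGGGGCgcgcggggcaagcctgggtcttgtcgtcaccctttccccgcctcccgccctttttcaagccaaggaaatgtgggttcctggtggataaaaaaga
Camta1: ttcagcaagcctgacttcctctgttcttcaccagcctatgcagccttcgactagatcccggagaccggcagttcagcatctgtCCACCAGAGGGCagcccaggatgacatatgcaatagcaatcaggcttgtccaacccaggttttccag
Fgfr2 and Lhpp: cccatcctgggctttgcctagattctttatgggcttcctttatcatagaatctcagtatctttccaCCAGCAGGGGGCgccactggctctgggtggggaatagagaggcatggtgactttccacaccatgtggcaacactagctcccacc

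The AP-1 motif was searched as TGANTCA, with any base in the middle. It is shown as TGACTCA, which FOS and JUN dimers bind, in a tall member in intron 1 of Ccnd3, the cyclin D3 gene (chr17:47511256-47511405, plus strand, 6.54 and 4.63), and in a low one in intron 13 of Susd1 (chr4:59331346-59331495, plus strand, 0.307 and 0.271). Neither match was covered by a footprint in either replicate.
Ccnd3: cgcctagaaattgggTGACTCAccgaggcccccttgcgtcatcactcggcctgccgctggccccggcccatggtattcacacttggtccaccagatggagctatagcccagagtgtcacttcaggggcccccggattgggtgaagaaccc
Susd1: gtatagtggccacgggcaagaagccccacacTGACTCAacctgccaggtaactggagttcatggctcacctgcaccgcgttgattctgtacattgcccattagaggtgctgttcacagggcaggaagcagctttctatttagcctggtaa

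The cAMP response element TGACGTCA, bound by CREB and ATF proteins, is shown in intron 1 of Mxi1, a MAX partner gene (chr19:53314276-53314425, plus strand, 7.95 and 4.79), and in intron 2 of Itpkb, an inositol trisphosphate kinase gene (chr1:180387566-180387715, plus strand, 5.80 and 4.89). The E-box CACGTG, bound by MAX dimers, is shown in intron 1 of Mnt, itself a MAX partner gene (chr11:74832216-74832365, plus strand, 7.68 and 4.87). All 3 matches were covered by a footprint in both replicates.
Mxi1: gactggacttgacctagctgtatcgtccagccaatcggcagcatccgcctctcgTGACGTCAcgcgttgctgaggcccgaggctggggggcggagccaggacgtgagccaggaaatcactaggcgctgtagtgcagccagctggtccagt
Itpkb: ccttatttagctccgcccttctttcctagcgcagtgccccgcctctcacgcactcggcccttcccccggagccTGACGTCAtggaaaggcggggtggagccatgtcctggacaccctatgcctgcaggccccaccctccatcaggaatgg
Mnt: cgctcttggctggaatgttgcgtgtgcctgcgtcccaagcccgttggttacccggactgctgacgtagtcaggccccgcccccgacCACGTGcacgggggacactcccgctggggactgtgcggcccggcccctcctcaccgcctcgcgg

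The remaining sequences hold the palindrome of steroid hormone receptors, in intron 1 of Per1, a circadian clock gene that glucocorticoids induce (chr11:69097056-69097205, plus strand, 6.83 and 5.79), the TEAD motif CATTCC in intron 2 of Atoh8 (chr6:72216766-72216915, minus strand, 6.16 and 5.00), and the paired NFI site in intron 2 of Slc12a4, an ion cotransporter gene (chr8:105959456-105959605, plus strand, 1.20 and 1.17). The paired NFI match was covered by a footprint in both replicates, and the matches in Per1 and Atoh8 in neither.
Per1: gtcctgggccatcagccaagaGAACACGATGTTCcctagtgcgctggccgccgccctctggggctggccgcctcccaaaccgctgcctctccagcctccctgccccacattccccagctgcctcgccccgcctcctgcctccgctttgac
Atoh8: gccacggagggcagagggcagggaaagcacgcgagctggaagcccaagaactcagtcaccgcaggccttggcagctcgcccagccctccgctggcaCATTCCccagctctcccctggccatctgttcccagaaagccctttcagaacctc
Slc12a4: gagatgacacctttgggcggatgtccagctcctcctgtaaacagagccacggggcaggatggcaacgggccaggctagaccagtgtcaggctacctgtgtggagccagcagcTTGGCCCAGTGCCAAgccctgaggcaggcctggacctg

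Camta1 and Slc12a4 were chosen after their values were seen, and the others by rank in height or among the genes with the most members. A match describes the letters in a window and is not evidence of a bound site.

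Intronic members were about as tall as other open regions away from gene starts and shorter than promoter regions. Their median height was 0.689 in replicate 1 and 0.609 in replicate 2, whereas other distal regions had 0.619 and 0.567, exonic ones 0.680 and 0.588, and proximal ones 1.42 and 1.08. Members exceeded other distal regions by less than the replicates differed from each other, and fell short of proximal regions by more. Within a replicate, all heights were multiples of 1 step (tolerance 0.02 steps). The median member stood at 148 steps in replicate 1 (95% exact Poisson interval 125 to 174) and at 146 steps in replicate 2 (123 to 172). These intervals take 1 step as 1 count, which no source states. They hold the counting error alone, for a single region of that height and not for the median over members. Members had a median width of 200 bp, as did other distal regions, against 214 bp for exonic and 260 bp for proximal regions. In members, 90% of widths lay between 130 and 520 bp. The GC content of their central 150 bp had a median of 54.0%, against 53.3% in other distal, 57.3% in exonic and 65.3% in proximal regions. At the 1 kb limit that the choice of members set, intronic regions 1001 to 1100 bp from a TSS numbered 198, with median heights of 0.794 and 0.648, and those 901 to 1000 bp away numbered 217, with 0.754 and 0.600. A second annotation, RefSeq, placed a transcript start within 1 kb of 503 members (4.47%). Of these, 18.3% were rich in CpG dinucleotides (GC over 55% and an observed to expected CpG ratio over 0.65), against 3.25% of the other members.

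**Figure D1:**
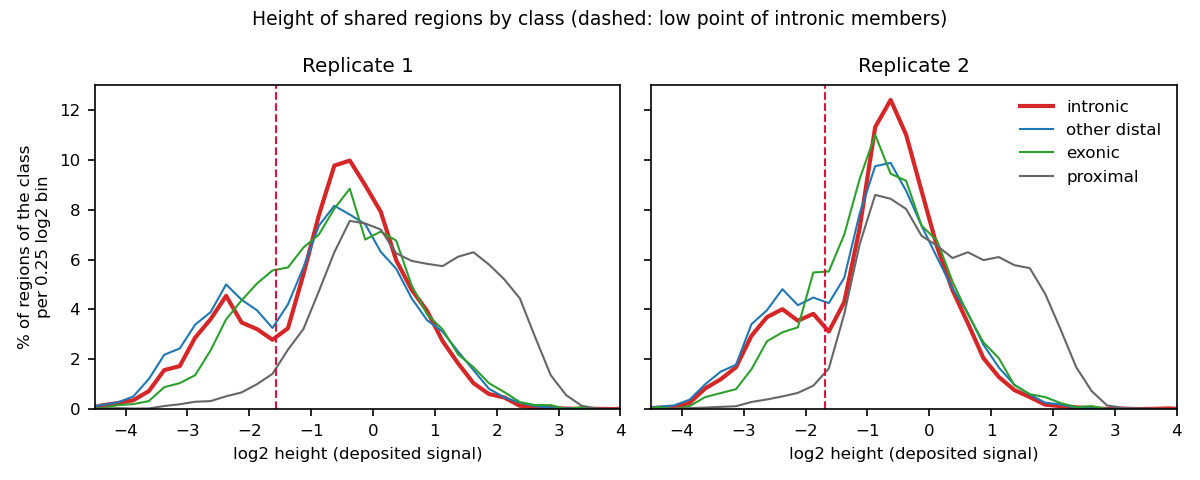
Share of the shared regions of each class (y axis, percent per bin of log2 height) by log2 of the deposited height (x axis) in replicate 1 (left) and replicate 2 (right). Intronic, other distal and exonic regions have a main mode and a shoulder or mode of low regions left of the dashed line, the low point of intronic members, while proximal regions reach further to the right.

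Heights of members in the replicates followed each other closely over most of their range. Log2 heights correlated across members with a Pearson coefficient of 0.95 and a Spearman coefficient of 0.941, a description over 11254 regions that share the same 2 libraries. Within the tall and the low members described below, the Pearson coefficients were 0.90 and 0.63 and the Spearman coefficients 0.872 and 0.634. The log2 ratio of replicate 2 over replicate 1 had a median of -0.20 (SD 0.41 over members), and -0.39 in the tallest quartile of members against 0.07 in the lowest. After centring on all shared regions, 97.2% of members were within 2-fold, 303 were over 2-fold higher in replicate 2 and 15 over 2-fold higher in replicate 1. Of the 303, 194 were among the low members and 59 among the tall ones. The members with the highest centred ratio among those of at least 100 steps in 1 replicate or both lay in Mtus2 (heights 0.182 in replicate 1 and 0.555 in replicate 2, centred log2 ratio 1.89), at 2 places in Sfi1, a gene of a centrosomal protein (1.81 and 1.68), and in Il1rapl1, a synaptic receptor gene (1.65). The complement gene C3 was next at 1.63. Those with the lowest ratio lay in Dock4 (heights 1.59 and 0.600, -1.12), Atxn7l1 (-1.07), Mdga2 (-1.05), Galnt7 (-1.02) and Ptma (-0.98). Of the regions that replicate 1 alone placed in introns by the same rule, 23294 in all, 49.1% overlapped a peak of replicate 2. Of the 31716 that replicate 2 alone placed there, 36.7% overlapped a peak of replicate 1.

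**Figure D2:**
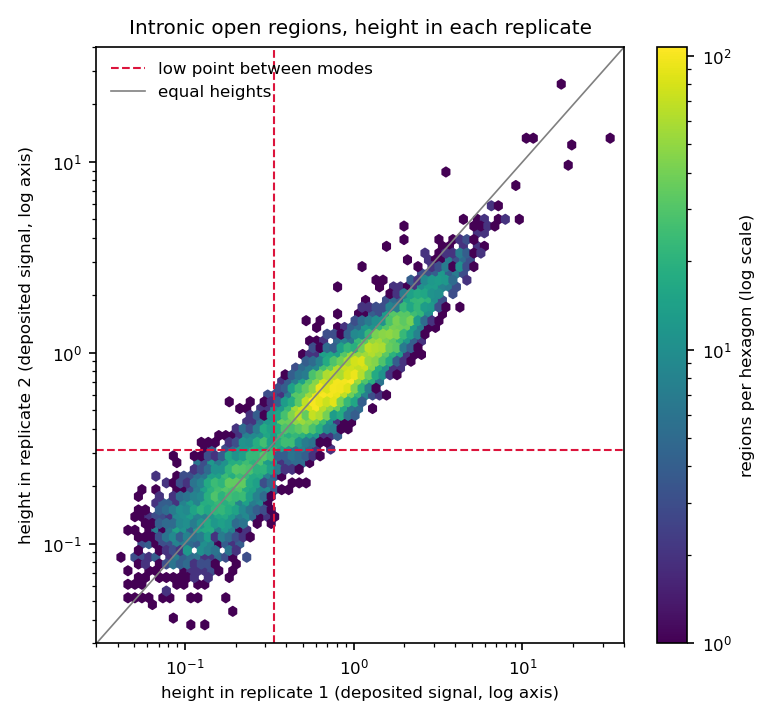
Height of each intronic member in replicate 2 (y axis) against replicate 1 (x axis), both the deposited signal on log axes, with colour for the number of regions per hexagon. Most members lie close to the line of equal heights, and a cloud of low members sits below both dashed low points at 0.339 in replicate 1 and 0.310 in replicate 2.

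Members fell into tall and low ones. In each replicate the distribution of heights had a low point, at 0.339 in replicate 1 and 0.310 in replicate 2, a division chosen after the heights were seen. Below it in both replicates were 2476 members (22.0%), above it in both were 8384 (74.5%), and 394 were above it in 1 replicate alone. The median low member stood at 0.172 in replicate 1 and 0.179 in replicate 2, and the median tall member at 0.861 and 0.730. Low members were wider (median 300 bp against 196 bp for tall ones) and crowded together. The next member lay a median of 590 bp from a low member and 24490 bp from a tall one, and 90.1% of low and 24.6% of tall members had a neighbour within 5 kb. A footprint was present in 49.7% of low members in replicate 1 and 50.9% in replicate 2, against 95.9% and 93.7% of tall ones. The low members were in the authors' stricter peak lists more often than the tall ones, 78.3% and 80.7% of low against 65.7% and 54.7% of tall members in replicates 1 and 2. Their GC content was lower (51.3% against 54.7%), and repeat-masked sequence made up most of the central window in 15.6% of low and 3.21% of tall members. The share of low regions was 22.0% among members, 25.9% among other distal, 18% among exonic and 2.81% among proximal regions.

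Low members were concentrated in few genes. They occurred in 531 genes, and the 50 genes with the most of them held 40.9% of all low member-gene pairs, whereas the 50 genes with the most tall members held 8.63% of the tall pairs. Among the 25 genes with the most members, 22 had more low than other members. Zfp618, a zinc finger gene, held 70 members in 162 kb of intron, 59 of them low, with median heights of 0.191 and 0.196. Trappc9, of a vesicle tethering complex, held 56 (51 low, medians 0.149 and 0.171), and Col23a1, a transmembrane collagen gene, held 51 (48 low, 0.177 and 0.200). Rbms3 and Wwc2 held 46 each, of which 34 and 39 were low, and all 42 members of Ctnnbl1, a splicing factor gene, were low. The single intron with the most low members was intron 1 of Zfp618, with 50 low among 57 members over 76.9 kb, followed by intron 16 of Trappc9 with 49 among 50 over 56.8 kb and intron 2 of Col23a1 with 48 among 50 over 109 kb. In Gpr35, a receptor gene, 28 of 30 members were low and all 30 lay within 30.2 kb of intron 1. Promoters of these genes ranged widely. The tallest promoter peak of Ctnnbl1 stood at 7.22 and 4.14, that of Zfp618 at 0.610 in replicate 1 with none in replicate 2, and Pdzk1, with 21 low among 22 members, had none in either.

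**Figure D3:**
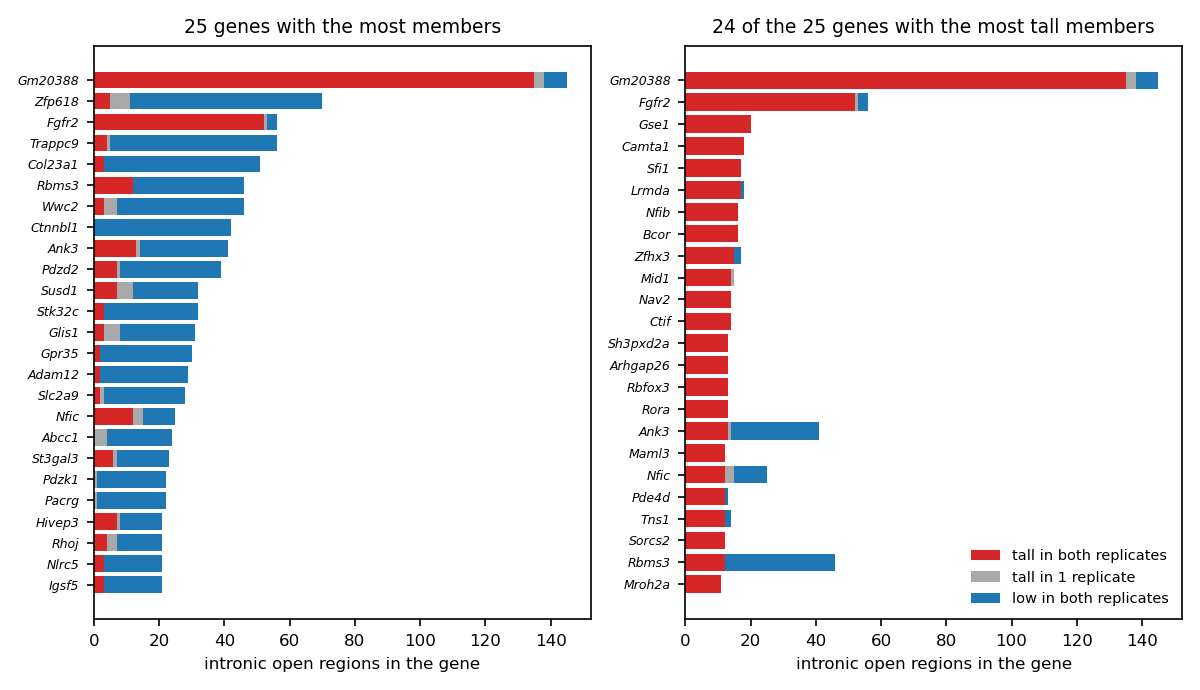
Number of intronic open regions (x axis) in the 25 genes with the most members (left) and in 24 of the 25 with the most tall members (right), split by colour into regions above the low point in both replicates, in 1, or in neither. Most of the genes on the left are filled by low regions, and most of those on the right by tall ones.

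The remaining 3 of these 25 genes had more tall than low members. The gene model Gm20388 held 145 members, 135 of them tall, but it spans chr8:119910841-124345722 with 71 other protein-coding genes inside, and 91 of its members had no other host. Fgfr2, a fibroblast growth factor receptor gene, held 56 members (52 tall) in a model that spans chr7:130162451-133123350 with 29 genes inside, and 21 of them had no other host. Nfic, of the NFI family of transcription factors, held 12 tall and 10 low members among 25.

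When genes were ranked by tall members instead, a ranking added after the low members were seen, Gse1, a chromatin regulator gene, came next after the 2 long models. It held 20 tall members (chr8:120228456-120581390, median heights 1.47 and 1.06), with no low one, and all 20 also lay inside Gm20388. Camta1, a calmodulin-binding transcription activator gene, held 18 (0.864 and 0.778), Lrmda held 17, and Nfib, a transcription factor gene of the NFI family, held 16 in 385 kb of intron. The tallest of these 16 stood at 5.95 and 3.54 (chr4:82513201-82513440, intron 1), the other 15 between 0.452 and 1.33 in replicate 1 and between 0.384 and 1.14 in replicate 2. The corepressor gene Bcor held 16, Zfhx3, a homeobox gene, 15 and Nav2, which acts on the cytoskeleton, 14, as did Ctif. Rbfox3, a neuronal splicing factor gene, held 13 tall members and no promoter peak in either replicate. Sfi1 held 17 and Mid1, a microtubule-associated ligase gene on chromosome X, 14, and 4 of the members of Sfi1 and 8 of those of Mid1 had a central sequence that occurs more than once in the genome.

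Across all protein-coding genes, 4756 of 21938 held at least 1 member (21.7%), and 4424 held at least 1 tall member (20.2%). A single member was held by 2670 genes, 2 members by 890, 3 to 5 by 819, 6 to 10 by 254 and 11 or more by 123. Genes with a member had far more intron to hold one, a median of 53.1 kb of eligible sequence (in no exon, over 1 kb from any TSS and outside assembly gaps), against 9.39 kb for the other genes that had any. In 88.0% of members the nearest protein-coding TSS belonged to a host gene, and 324 members lay in 2 or more genes. Genes with a promoter peak in both replicates, within 500 bp of a TSS, held 13.5 members per Mb of eligible intron, genes with one in 1 replicate 14.5 and genes with none 9.69. For tall members these densities were 10.1, 9.51 and 7.55. The share of genes holding a member was 28.0%, 23.4% and 9.10%. Per chromosome, autosomes had 10.1 to 18.5 members per Mb, X had 5.33 and Y none in both replicates. The 2.85 Mb of eligible intron on Y held 0.701 per Mb in replicate 1 alone and 1.40 per Mb in replicate 2 alone. Both samples were female, so these values on Y are not read as open chromatin of that chromosome. Their source was not tested. For tall members X had 3.78 per Mb and the autosomes 6.83 to 14.5.

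Members were densest near the start of the host gene, above all in first introns. Over all introns the density fell with distance in every step. It was 27.6 members per Mb of eligible intron at 1 to 2 kb from the nearest TSS of the host, 14.8 at 5 to 10 kb, 11.8 at 20 to 50 kb and 7.32 beyond 100 kb. First introns held 15.5 members per Mb and later introns 12.2, with 31.1 and 25.4 in replicate 1 alone and 39.1 and 35.6 in replicate 2 alone. At 1 to 2 kb the density was 39.4 in first and 20.5 in later introns, with 73.8 and 40.2 in replicate 1 alone and 75 and 47.9 in replicate 2 alone. At 10 to 20 kb it was 13.9 in first and 13.1 in later introns, and at 20 to 50 and 50 to 100 kb first introns had the lower density (10.9 against 12.01, and 9.43 against 10.9). Beyond 100 kb first introns had the higher density again, 9.62 against 7.01, and 8.18 against 4.31 for tall members. This held in replicate 1 alone (20.1 against 15.3) and not in replicate 2 alone (20.97 against 25.4). First introns held 267 members there, 227 of them tall. Intron 1 of the gene model Gm20388 alone held 144 members over all distances, 134 of them tall, in a stretch of 4253 kb. The density without this model was not computed. The excess in first introns at 1 to 2 kb was also present among tall members, at 32.4 against 16.2. Heights changed less than density, with medians of 0.799 and 0.671 at 1 to 2 kb, 0.529 and 0.5003 at 50 to 100 kb and 0.559 and 0.538 beyond 100 kb. No test over samples was possible with 2 replicates of 1 group, and members of a gene share their source.

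**Figure D4:**
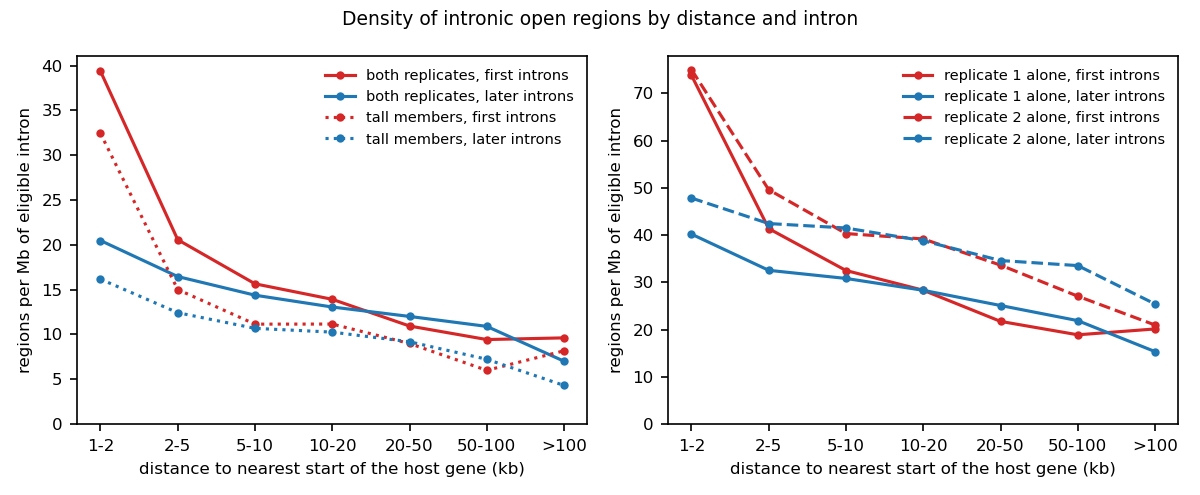
Intronic open regions per Mb of eligible intron (y axis) by distance from the nearest start of the host gene (x axis, kb), in first introns and in later introns. The left panel shows regions found in both replicates and the tall ones among them, and the right panel each replicate alone; all 4 pairs of lines are furthest apart at 1 to 2 kb.

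Of the 40 motifs searched, CTCF had the largest share of matches under footprints in both replicates, and its share of members was larger among taller ones. A match to its consensus was present in 11.4% of members, 10.6% of other distal, 9.16% of exonic and 2.22% of proximal regions, all in central windows of 150 bp and on both strands. It was present in 0.0808% of low and 15.2% of tall members, and among tall members the share was 6.44% in the lowest quartile of height and 25.9% in the tallest. The rise did not extend to the very tallest, since 1 of the 25 tallest members held a match. Tall members with a match had median heights of 1.16 and 0.951, against 0.824 and 0.700 for tall members without one. Footprints, which covered 18.02% of the central bases of members in replicate 1 and 14.9% in replicate 2, covered at least 50% of the match in 97.7% and 95.7% of 1288 CTCF matches, as in the Tmprss6, Camta1 and Fgfr2 sequences above. In both replicates at once this held for 94.5% of matches in members, 92.6% in other distal and 89.8% in proximal regions.

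Most other motifs were covered by footprints far less often. AP-1 matches, counted with any middle base, were present in 6.24% of members, 5.65% of other distal, 4.08% of exonic and 2.48% of proximal regions. They were covered in 6.93% of cases in replicate 1 and 4.21% in replicate 2, and the AP-1 match in Ccnd3 was among the uncovered. TEAD matches, the motif of the factors that YAP and TAZ bind, were present in 9.61% of members and 5.63% of proximal regions. Other distal and exonic regions were close to members, at 9.03% and 9.08%. TEAD matches in members were covered in 13.2% and 10.6% of cases. The single NFI site TTGGCA was present in 12.7% of members, 11.3% of other distal, 10.2% of exonic and 6.12% of proximal regions. In members it was covered in 33.0% and 28.8% of cases. The paired NFI site was rare, with 24 members, all of them above the low point in at least 1 replicate, and was covered in 75% and 83.3%, as in Slc12a4. The cAMP response element was present in 0.311% of members, 0.407% of other distal and 1.96% of proximal regions, and 41.7% of its 36 matches in members were covered in both replicates, as in Mxi1 and Itpkb. The 6-letter KLF/SP motif GGGCGG, of GC-rich promoters, was present in 10.3% of members, 10.4% of other distal, 14.1% of exonic and 46.5% of proximal regions. The ETS motif CCGGAA was present in 3.17%, 3.92%, 5.68% and 14.5% of these classes. The SRF CArG box, through which smooth muscle genes are activated, was present in 0.657% of members, 0.791% of other distal and 0.557% of proximal regions. The steroid receptor palindrome was found in 2 members, at Per1 and in intron 3 of Rapgef2 (heights 0.545 and 0.567), Rapgef2 being named after its values were seen.

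**Figure D5:**
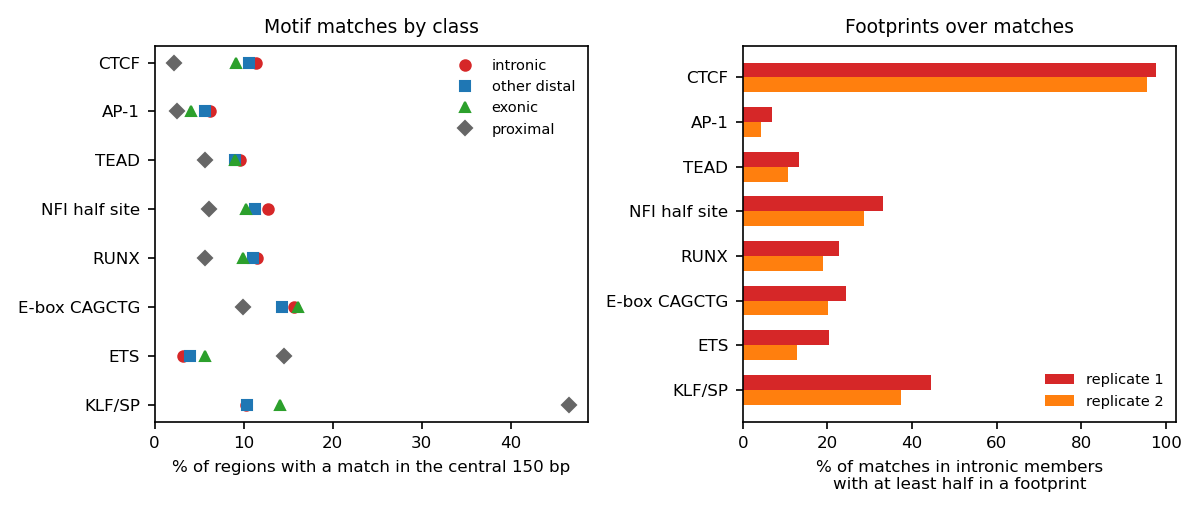
Left, percent of shared regions of each class with a match to each of 8 motifs in the central 150 bp (x axis). Right, percent of matches in intronic members with at least 50% of their bases in a deposited footprint, by replicate; the bars for CTCF, at 97.7% and 95.7%, stand far above the next of the 8 drawn, KLF/SP, at 44.5% and 37.3%.

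The tallest members included repeated sequence. The 25 tallest ranged in mean height from 4.94 to 23.4, 21 of them were higher in replicate 1, and 7 lay within 2000 bp of a TSS. In 7 of the 8 tallest, the central 31 bases occurred more than once in the placed chromosomes, and in none of the other 17 of the 25. The part of this in the heights was not tested. The tallest of all lay in Gm10722 (chr9:3002041-3002220, heights 33.0 and 13.8), with 7 such copies and all of its window repeat-masked. The other repeated ones were 3 members in intron 9 of Mid1, of which the tallest stood at 17.3 and 25.6, and 1 each in Il31ra, Jarid2 and Gphn. Aida held the one of the 8 whose central bases occurred once (10.3 and 13.5). Over all members 2.72% had such a repeated centre, against 6.04% of other distal, 2.44% of exonic and 1.53% of proximal regions. Among the tallest with a single copy were Mxi1 and Mnt, which encode partners of MAX, Per1 and Nr1d1, both of the circadian clock (Nr1d1 at 6.13 and 4.36), the cyclin gene Ccnd3, and Prdm2, a histone methyltransferase gene whose member lay 99 bp from a RefSeq transcript start (6.505 and 4.66). Dlg4, of the synaptic scaffold, had 5.69 and 4.39.

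The tissue label was checked through promoters. Both replicates had a promoter peak at 62.3% of all protein-coding genes. They had one at 29 of 31 smooth muscle genes, 34 of 36 fibroblast and mesenchyme genes and 15 of 27 urothelium genes. Endothelium genes had one at 12 of 18, immune genes at 4 of 17 and peripheral glia and neuron genes at 5 of 15. Among lists of other tissues it was 13 of 18 central nervous system genes, 5 of 15 striated muscle genes and 0 of 15 hepatocyte genes. The shares of urothelium, immune and peripheral glia and neuron genes were thus below that of all genes. Those of endothelium and central nervous system genes were above it. In bulk tissue, fewer cells of a type and less open chromatin per cell cannot be told apart.

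Pooled over their introns, genes of the bladder's muscle coat held members at a lower density than all genes. Of 31 smooth muscle genes, 19 (61.3%) held at least 1, against 21.7% of all protein-coding genes, and the list had 67 members at 9.44 per Mb of eligible intron, against 13.1 for all protein-coding genes. Mylk, the myosin light chain kinase of contraction, held 7 tall members, the tallest at 1.53 and 1.22 in intron 11 (chr16:34902381-34902560). Kcnma1, the large-conductance potassium channel of bladder muscle, also held 7, led by one at 2.68 and 1.84 with an AP-1 match in intron 1 (chr14:24008381-24008560). Cacna1c, the L-type calcium channel, held 6 tall ones with medians of 1.17 and 0.907. In contrast Dmd, the dystrophin gene, held 7, of which 2 were tall, in 2209 kb of intron, with medians of 0.261 and 0.346. Long genes weigh most in the list density, which is pooled over 7.10 Mb. Dmd had 3.17 members per Mb and Prkg1, named after its values were seen, 4.26 in 1173 kb, whereas Mylk had 30.8 in 227 kb. The density without the long genes was not computed. No member was found in Cald1, Itga8 or Pde5a, which have 153, 179 and 113 kb of eligible intron, nor in Lmod1 or Pdlim3.

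Connective tissue and signalling genes had densities of 13.9 per Mb and more, against 13.1 for all protein-coding genes. The shares of genes with a member are to be read against 21.7% of all protein-coding genes. Of 36 fibroblast and mesenchyme genes, 19 (52.8%) held members, 58 in all and 13.9 per Mb. Besides Nfib these included Col5a1, a fibrillar collagen gene, with 7, and Gli2, a Hedgehog effector, with 5, the tallest at 1.73 and 1.81 (chr1:118976641-118976860). Gli3, Zeb1 and Bnc2 held none in 254, 163 and 381 kb. Of 23 genes of TGF-beta, BMP and Smad signalling, 14 (60.9%) held 41 members at 20.3 per Mb. There were 6 each in the inhibitory Smad6, the coreceptor Tgfbr3 and the latency protein Ltbp1, which the smooth muscle list also holds. Of the Smads that carry the signal, Smad3 held 5 tall members in 97.8 kb and Smad1 held 1, and Smad2, Smad4 and Smad5 held none in 56.9, 50.02 and 29.1 kb. The density of this list was 38.6 in replicate 1 alone and 34.6 in replicate 2 alone, against 26.9 and 36.6 for all genes, so it was above all genes in replicate 1 and below them in replicate 2. Of 15 genes of the Hippo pathway, 12 (80.0%) held 37 members, 36 of them tall, at 32.0 per Mb, with 44.1 and 50.1 in replicates 1 and 2 alone. Tead1, a DNA-binding partner of YAP, held 9, and its relative Tead3 held 3, of which one in intron 2 stood at 4.66 and 3.18. The Hippo kinase gene Stk3 held none in 292 kb. Nuclear corepressors and coactivators had 69 members in 13 of 20 genes (65.0%) at 21.3 per Mb, with 16 in Bcor. Genes of integrins, actin and focal adhesion had 74 in 21 of 25 genes (84.0%) at 18.9 per Mb, led by the tensin genes Tns1 with 14 and Tns3 with 10.

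Among genes of epithelium, vessels and leukocytes, the shares and densities are to be read against 21.7% of all genes with a member and 13.1 members per Mb. Of 27 urothelium genes, 9 held 17 members at 24.3 per Mb, in 0.700 Mb of eligible intron. Grhl2 and Trp63, factors of epithelial and of basal cells, held 5 and 4, with tallest members of 0.829 and 0.763 and of 0.661 and 0.409. Gata3, a urothelial transcription factor, held 1 with an AP-1 match in intron 1 (chr2:9879581-9879820) at 3.65 and 2.37, 1101 bp from its start. Pparg, a urothelial differentiation factor, held none in 117 kb. Of 18 endothelium genes 9 held 20 members at 12.2 per Mb. Pecam1, an adhesion gene of endothelium, held 5 with a tallest of 1.79 and 1.31, although it had no promoter peak. Of 17 immune genes 4 (23.5%, close to the share of all genes) held 10 members at 15.3 per Mb, among them Spi1, the factor PU.1 of myeloid cells, with 1 at 3.09 and 2.37, and Cx3cr1, a chemokine receptor gene, with 6, of which 3 had no other host. Neither had a promoter peak in either replicate. Csf1r and Adgre1, of macrophages, held none. In replicate 1 alone immune genes had 27.5 and endothelium genes 28.7 per Mb, against 26.9 for all genes. In replicate 2 alone they had 19.9 and 23.2, against 36.6, so both lists were above all genes in replicate 1 and below them in replicate 2.

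The lists of other tissues were not empty of members. Against 21.7% of all genes with a member and 13.1 members per Mb, 12 of 18 central nervous system genes (66.7%) held 60 members, at 4.54 per Mb, led by Rbfox3 with 13 and Rbfox1 with 10. Of 15 peripheral glia and neuron genes 4 (26.7%) held 21 members, 16 of them low, and 13 of these 21 lay in Chat, whose enzyme makes acetylcholine, at medians of 0.186 and 0.204. The density of this list was 70.7 per Mb for all members and 13.5 for tall ones. Of 15 hepatocyte genes 2 (13.3%) held members, at 11.8 per Mb, Hnf4a with 2, at 2.85 and 1.83 and at 1.90 and 1.36, the lower one with a CTCF match, and Cps1 with 1. Striated muscle genes had 7 members in 5 of 15 genes (33.3%, 7.28 per Mb). AP-1 and immediate early genes had 5 in 3 of 18 (16.7%), at 53.3 per Mb in 0.0938 Mb of eligible intron. Their density was 341 in replicate 1 alone and 53.3 in replicate 2 alone, against 26.9 and 36.6 for all genes. None of 20 housekeeping genes held a member in both replicates, in 0.212 Mb of eligible intron. There replicate 2 alone had 33.0 per Mb and replicate 1 alone none.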

How the data were processed

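DNase-seq was measured in urinary bladder, with 1 library for each of 2 replicates of 1 group. Peaks, footprints and false discovery rates were derived by the authors from each replicate's own filtered alignments on mm10, per the deposited descriptions, with no pooling. For the aligner, the callers, their versions and thresholds: not given in the sources used here. Peak height is the deposited signal, on a scale that no source states. The deposited p-value columns hold a false discovery rate in the rate lists, from which no result is drawn, and 0.01 throughout in the footprint lists, of which positions alone were used. The total depth is unknown. The step in which heights are whole multiples was 0.00466 in replicate 1 and 0.00417 in replicate 2.

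Peaks overlapping by at least 1 bp were merged, and the tallest peak per replicate gave the height. Regions were classed by midpoint against GENCODE M21, and intron numbers follow the longest protein-coding transcript. Matches to 40 motifs were searched on both strands of each region's central 150 bp. A footprint lay over a match if it covered at least 50% of it. The NFI sites can overlap each other. Repeat-masked bases are those in lower case in the reference genome. Copies of the central 31 bases were counted on the placed chromosomes of GRCm38. Python 3.11.15, numpy 2.4.6, pandas 2.3.3, scipy 1.17.1 and matplotlib 3.10.9 were used, and the code was tested on simulated regions with known classes.

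No test was run, because the labels give 1 group. The members and the 16 gene lists were chosen with earlier results of these data known. Genes named are the 25 with the most members, hosts of the 25 tallest members, up to 4 per list with the most members, list genes with over 20 kb of eligible intron and no member, the 5 highest and lowest ratios between replicates, and the 10 introns with the most members. The ranking by tall members, the copy counts, the check against RefSeq starts and the division by height were added after the data were seen. The alternatives tried were the stricter peak lists, each replicate alone, other limits on overlap, TSS distance and exons, other introns, windows and promoters, and heights above the low point. Results for 1 gene and 1 of the gene lists are not reported here.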

Additional observations from a re-analysis of the deposited data

How the results depend on the processing

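Of 167 values under 13 alternatives, 94 stayed within the spread between replicates and 73 moved by more. For the number of members a set factor stood in for this spread, and for the log2 ratio its SD over members (0.41). For densities the spread was the SD of the 2 replicates taken alone, such as 7.20 per Mb in later introns. Large changes could thus count as within it. Under the stricter lists later introns went from 12.2 to 6.56 per Mb. Genes with an open promoter went from 13.5 to 7.54 and the other genes from 11.1 to 5.60. First introns had a higher density than later introns, and genes with an open promoter a higher one than the other genes, in 10 of 10 settings each. The stricter lists gave 5948 members, 17.9% of shared regions, in 13.6% of genes, with median heights of 0.978 and 0.830, a density of 7.88 per Mb in first introns, AP-1 in 5.63%, CTCF in 14.6% and footprints in 85.2% in replicate 2. A limit of 2 kb from any TSS gave 18.2% of regions and 19% of genes, and no base in an exon 19.9% and 20.8%. With an overlap of at least 50% of the shorter peak, footprints were present in 85.7% in replicate 1. In members of at least median height they were present in 99.1% and 98.2%. The central 100 bp held AP-1 in 4.17%. Chosen after seeing the data, members above the low point made up 15.7% of regions, in 20.2% of genes, with heights of 0.861 and 0.730, AP-1 in 6.92%, CTCF in 15.2% and footprints in 95.9% and 93.7%.

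With either replicate alone, members numbered 23294 to 31716 (24.9 to 26.3% of regions), with a median width of 166 to 180 bp, in 28.3 to 29.5% of genes. Densities were 31.1 to 39.1 per Mb in first and 25.4 to 35.6 in later introns, and 28.0 to 38.0 in genes with an open promoter against 20.7 to 29.1 in the others. AP-1 was present in 5.26 to 5.82% and CTCF in 4.56 to 6.25%. Replicate 1 alone had a median height of 0.396 and footprints in 68.5%, and replicate 2 alone 0.229 and 58.2%. The median log2 ratio of replicate 2 over replicate 1 was 0.09 centred on all shared regions and -0.20 not centred. No paired analysis was possible because there was 1 group. Precision is limited by 2 replicates, an unknown read depth and, for low members, a median of 37 and 43 steps. The cause of these shifts was not tested.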
